A study of Homo sapiens with 4 samples.

Results

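The genes described here are lncRNA-LBCS (ENSG00000228412), the 3 core subunits of Polycomb repressive complex 2 (EZH2, EED and SUZ12), the Polycomb repressive complex 1 subunit BMI1 and 5 genes that are widely used as markers or drivers of stem-like tumour cells (SOX2, KLF4, CD44, ALDH1A1 and ALDH1A3). They were chosen by name, which makes 10 genes of the 27629 genes listed in at least 1 of the 4 deposited tables. SOX2 was not analysed here, so values are given for 9 genes. UM-UC-3, a bladder cancer line of human origin, was transfected with siRNA at 75 nM using Lipofectamine RNAiMAX, and its total RNA was sequenced as 100-base paired-end reads. The methods give 48 h between transfection and extraction for control siRNA and si-hnRNPK, and no time for the other knockdowns. The sample annotation used here lists 48 h for all 4 libraries. Control siRNA, si-hnRNPK, si-PTBP1 and si-lncRNA-LBCS gave 1 library each, and the last of these is called the si-LBCS library. Each knockdown culture received a pair of siRNAs against the same target, and UM-UC-3 was the only line sequenced, without an untransfected culture among the libraries used here. Values are CPM, the share of a library's reads that fell on a gene, on a common scale for the 4 libraries, and they came from 54301152 to 70232674 reads per library. With 1 library per condition the spread between cultures is unknown for all differences, and the intervals given are 95% intervals of counting error only.

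Polycomb repressive complex 2 (PRC2) places methyl groups on lysine residues of the histone H3 tail and so keeps genes silent. EZH2 is its catalytic subunit, EED binds the methylated histone and SUZ12 holds the complex together. Polycomb repressive complex 1 (PRC1), which contains BMI1, acts on the same chromatin. lncRNA-LBCS is a long non-coding RNA that has been described as a partner of hnRNPK and EZH2 at the SOX2 gene in bladder cancer stem cells. SOX2 and KLF4 are transcription factors of pluripotent cells, CD44 is the receptor for hyaluronan on the cell surface, and ALDH1A1 and ALDH1A3 oxidise retinaldehyde to retinoic acid.

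The siRNAs decide what each library can show about these genes, so their sense strands are given 5′ to 3′ with their 2-base overhangs. Capitals mark bases 12 to 18, which are the letters that a transcript must hold to pair with the seed (bases 2 to 8) of the guide strand:
si-lncRNA-LBCS siRNA 1: gcugcucauuuGUCUGAUctt
si-lncRNA-LBCS siRNA 2: ggugguagucaACACAAAutt
si-hnRNPK siRNA 1: ggguuguagagUGCAUAAatt
si-hnRNPK siRNA 2: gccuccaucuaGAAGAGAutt
si-PTBP1 siRNA 1: gccucaacgucAAGUACAatt
si-PTBP1 siRNA 2: cccucauugacCUGCACAatt

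The 19 paired bases of both si-lncRNA-LBCS siRNAs matched ENSG00000228412 exactly and no other annotated gene. GENCODE release 29 (GRCh38) places this gene at chr6:19324988-19839080, minus strand, and annotates it as an antisense RNA. The 2 sites are shown in capitals with 5 transcript bases on each side:
siRNA 1 site: ttgaaGCTGCTCATTTGTCTGATCtatga
siRNA 2 site: ctgctGGTGGTAGTCAACACAAATaaaaa
The first site spans chr6:19803794-19803812 and the second chr6:19803293-19803311, both in the last exon of transcript ENST00000607810, which has 3 exons and 1930 bases. Of the 12 annotated transcripts of the gene, 5 hold the first site and 1 of those also holds the second. The other 7 transcripts hold neither, and the deposited value sums reads over the gene as the authors annotated it.

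**Figure D1:**
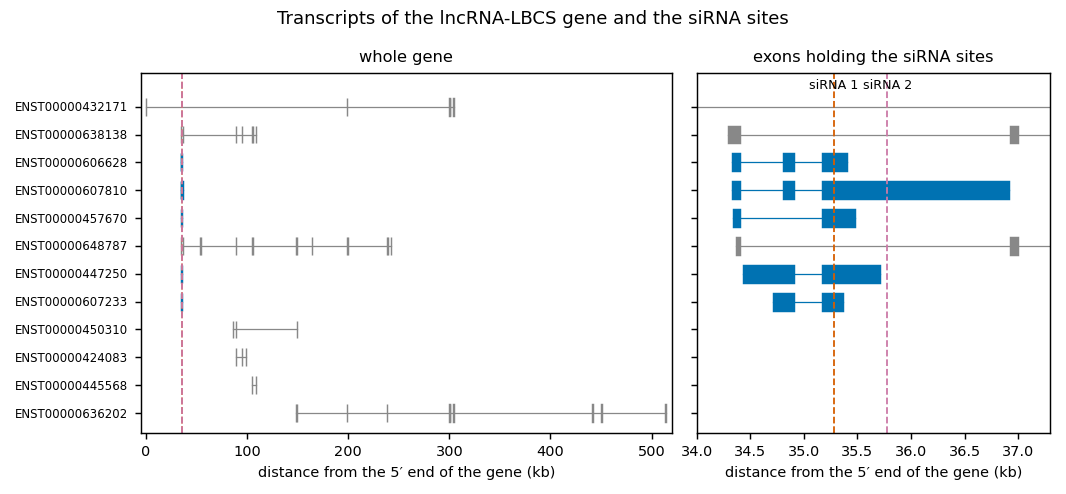
Annotated transcripts of the lncRNA-LBCS gene, one per line, drawn by distance from the 5′ end of the gene in kb, with exons as boxes and introns as lines. Blue transcripts hold an siRNA site and grey ones do not. Dashed lines mark the sites, which coincide at the scale of the whole gene (left) and are separate at the scale of the exons that hold them (right). The 5 blue transcripts all lie within a short stretch of a gene whose other 7 transcripts together extend over its whole length.

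lncRNA-LBCS was a low-abundance RNA in these cells, and its level was higher in the si-hnRNPK and si-PTBP1 libraries than in the other 2. It was at 1.79 CPM (110 reads) with control siRNA, 1.47 CPM (103 reads) in the si-LBCS library, 3.43 CPM (186 reads) with si-hnRNPK and 3.82 CPM (214 reads) with si-PTBP1. The library transfected against it was thus the lowest of the 4, at 0.818 times the control level, but the interval of 0.619 to 1.08 includes no change. The label of that library gives 0.13 for RT-qPCR of the target relative to control siRNA, a field named inhibition rate in which the control stands at 1. That assay read an amplicon, and the sequencing value covers the whole gene. The counting interval of the gene value lies above 0.13, and why the values differ was not tested. The gene value does not show that knockdown. Changes in this library are therefore given as those of the library so labelled, without a direction drawn from lncRNA-LBCS itself.

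The level of lncRNA-LBCS was 1.91 times control with si-hnRNPK (1.5 to 2.44) and 2.13 times control with si-PTBP1 (1.68 to 2.71). The libraries with si-hnRNPK and si-PTBP1 did not differ from each other beyond counting error (ratio 1.11, 0.911 to 1.36, PTBP1 over hnRNPK). On the log2(CPM + 1) scale, where a difference of 1 from the control library was taken as a change, these were 0.66 and 0.79, below the threshold. That scale understates the change of low genes, and with a pseudocount of 0.1 the si-PTBP1 difference was 1.05. HNRNPK itself, the target of si-hnRNPK, was at 0.240 times control in its library, and PTBP1 at 0.320 times control in the si-PTBP1 library. The labels of these libraries give 0.08 and 0.1 for RT-qPCR of the target. The gene values of HNRNPK and PTBP1 thus also lay above their labels, and why was not tested.

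Only 2 of the 11 other genes annotated within 500 kb of lncRNA-LBCS were listed in the tables, ID4 and MBOAT1. ID4, an inhibitor of basic helix-loop-helix transcription factors, starts next to lncRNA-LBCS on the opposite strand, and their gene spans overlap by 1695 bases while their annotated exons overlap by 0 bases. ID4 was at 1.99 CPM in control, 4.88 CPM in the si-LBCS library, 1.73 CPM with si-hnRNPK and 5.30 CPM with si-PTBP1. It was therefore high in the si-LBCS and si-PTBP1 libraries, at 2.46 times (1.99 to 3.05) and 2.66 times (2.15 to 3.32) control, and not in si-hnRNPK. Its log2 differences were 0.98 and 1.08, the second past the threshold. lncRNA-LBCS was high in a different pair of libraries. MBOAT1, a membrane-bound acyltransferase, was at 10.0 CPM in control, 5.94, 3.24 and 7.87 CPM in the si-LBCS, si-hnRNPK and si-PTBP1 libraries, and fell by 1.38 on the log2 scale in si-hnRNPK. Among 9056 genes at a mean of 10 CPM or more, the 3 whose differences from control lay closest to those of lncRNA-LBCS were TMEM200A, CEP19 and BCL3. Their root mean square distances over the 3 knockdown libraries were 0.0983, 0.107 and 0.117 on the log2 scale.

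Of the 9 genes with values, 8 reached the filter of 1 CPM in every library, and ALDH1A3 in none. In the si-hnRNPK library 3 of these 8 genes passed the threshold: EZH2 and CD44 fell and ALDH1A1 rose. Over all 13672 genes tested in that comparison 7.48% passed it, 3.55% upwards and 3.93% downwards. In the si-LBCS library 1 of the 8 genes passed, ALDH1A1, against 1.39% of 13492 genes, of which 0.378% upwards and 1.01% downwards. In the si-PTBP1 library 2 of the 8 passed, KLF4 and ALDH1A1, both upwards, against 3.53% of 13855 genes, of which 2.92% upwards and 0.613% downwards. The median difference over all genes tested was -0.01 in the si-LBCS library, -0.11 in si-hnRNPK and 0.12 in si-PTBP1, which is the scale shift beside which each value below can be read. All 3 comparisons use the same control library.

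**Figure D2:**
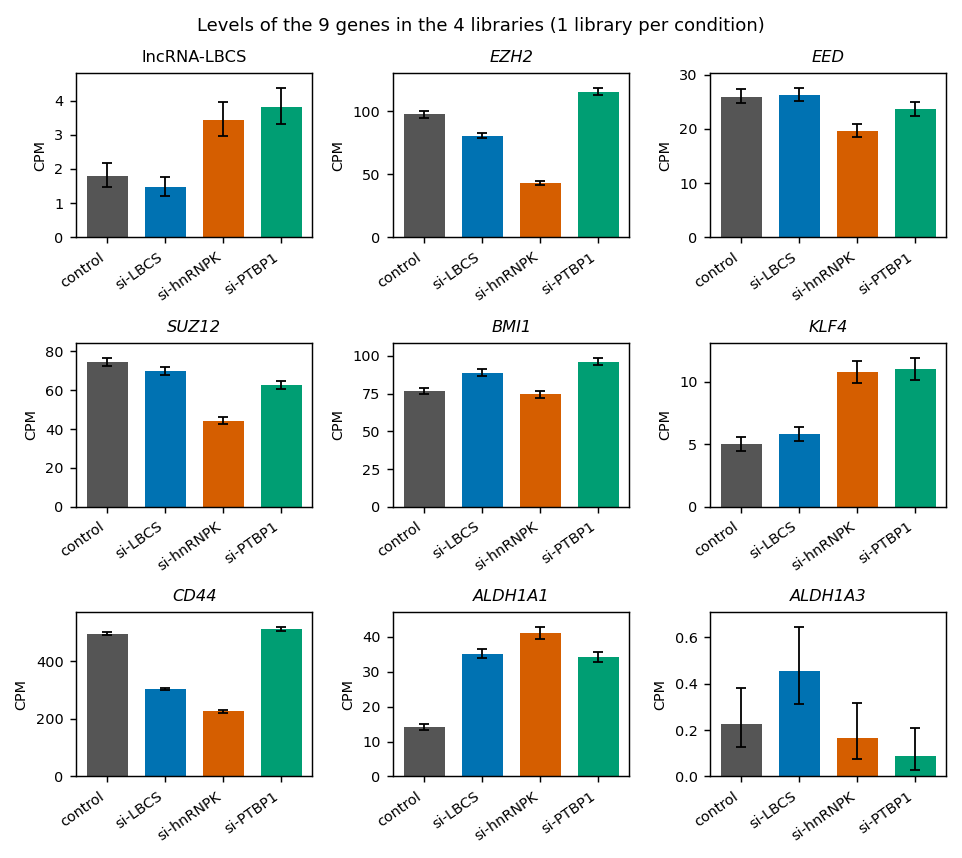
Levels of the 9 genes in CPM (y axis, each with its own scale starting at 0) in the 4 libraries, with 95% counting intervals as error bars and 1 library per bar. EZH2, EED and SUZ12 were lowest with si-hnRNPK, CD44 was low in the si-LBCS and si-hnRNPK libraries, and ALDH1A1 was lowest in control.

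EZH2 differed most among the core subunits of PRC2. It was at 97.3 CPM in control, 80.6 CPM in the si-LBCS library, 43.1 CPM with si-hnRNPK and 115 CPM with si-PTBP1. The si-hnRNPK library stood apart from the other 3, at 0.443 times control (0.422 to 0.465) and 0.535 times the si-LBCS library, the next in order. This was a fall of EZH2 by 1.16 on the log2 scale, lower than all but 2.09% of the genes tested. With si-PTBP1 EZH2 was at 1.19 times control (1.14 to 1.23), and in the si-LBCS library at 0.829 times control (0.799 to 0.860), so each neighbouring pair in the order of the 4 libraries differed beyond counting error. The fall in si-hnRNPK remained past the threshold with median-of-ratios scaling (-1.05), with the geometric mean of the other 3 libraries as the reference (-1.15) and relative to genes of like exonic length (-1.09).

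SUZ12, the scaffold of the complex, was at 74.5 CPM in control, 70.0 CPM in the si-LBCS library, 44.3 CPM with si-hnRNPK and 62.7 CPM with si-PTBP1. The si-hnRNPK library was again the lowest, at 0.594 times control (0.566 to 0.625), a difference of -0.74 that did not reach the threshold. SUZ12 has an annotated pseudogene copy on the same chromosome, SUZ12P1, which the tables give at 13.1 to 16.8 CPM, and how reads were shared between them is not given in the sources used here. EED, which reads the methyl mark, was at 26.0 CPM in control, 26.3 CPM in the si-LBCS library, 19.6 CPM with si-hnRNPK and 23.6 CPM with si-PTBP1. Its lowest library was also si-hnRNPK, at 0.756 times control (0.699 to 0.817), while control and the si-LBCS library did not differ beyond counting error (ratio 1.01, 0.946 to 1.08). The 3 core subunits thus had the same lowest library, with log2 differences from control of -1.16, -0.74 and -0.39 for EZH2, SUZ12 and EED beside a median of -0.11 over all genes. In control cells the level per kb of exon was 21.5 CPM for EZH2, 11.4 CPM for SUZ12 and 3.70 CPM for EED. With si-hnRNPK these levels per kb were 9.53, 6.76 and 2.80 CPM, so the order of the subunits was the same and the distance between EZH2 and SUZ12 was smaller.

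**Figure D3:**
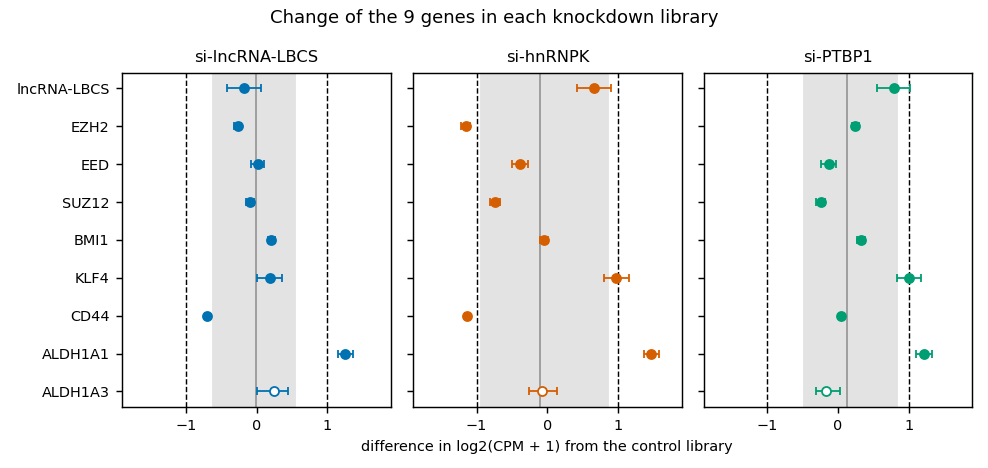
Difference in log2(CPM + 1) from the control library (x axis) for each of the 9 genes in the 3 knockdown libraries, with 95% counting intervals as bars. Dashed lines mark the threshold of 1 in each direction, the grey band holds the middle 90% of all genes tested with their median as a grey line, and open circles mark ALDH1A3, which was below the filter. EZH2 and CD44 lie below the lower threshold in si-hnRNPK, ALDH1A1 lies above the upper threshold in every panel, and KLF4 lies on it in si-PTBP1.

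Of the accessory subunits of PRC2 and the EZH2 paralog EZH1, 11 genes in all, 9 were listed in the tables and these were tested, and 0 passed the threshold in the si-LBCS library or in si-hnRNPK. Their medians were 0.03 and -0.31 against -0.01 and -0.11 over all genes. RBBP7 and RBBP4, the histone-binding subunits with the highest control levels, were at 185 and 106 CPM in control. They were at 149 and 105 CPM with si-hnRNPK, the difference of RBBP4 being -0.02 beside that of -1.16 for EZH2. Over the 9 genes the differences in si-hnRNPK ran from -0.79 to 0.90, with 7 below 0 and 2 above. In si-PTBP1 1 gene of 9 passed, JARID2, a subunit that guides PRC2 to chromatin, which rose from 24 to 54 CPM. The median of the 9 genes was 0.19 there, against 0.12 over all genes. Of all genes 1.39%, 7.48% and 3.53% passed the threshold in the si-LBCS, si-hnRNPK and si-PTBP1 libraries.

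BMI1, a subunit of PRC1 that supports self-renewal of stem cells, did not pass the threshold in a comparison. It was at 76.9 CPM in control, 89.0 CPM in the si-LBCS library, 74.6 CPM with si-hnRNPK and 96.3 CPM with si-PTBP1. The control and si-hnRNPK libraries were lowest and did not differ beyond counting error (ratio 0.970, 0.930 to 1.01, si-hnRNPK over control), and with median-of-ratios scaling the sign of that difference turned to 0.07. The highest level, with si-PTBP1, was 1.25 times control (1.20 to 1.30). BMI1 shares 1000 exonic bases with the read-through gene COMMD3-BMI1, which has no value in any of the 4 libraries. How reads of the shared bases were assigned is not given in the sources used here. Of the other PRC1 subunits 19 of 20 were tested in each comparison. In si-hnRNPK 1 of the 19 fell, BCOR, a subunit of a variant form of the complex, from 17.3 to 7.83 CPM. In the si-LBCS library and in si-PTBP1 0 of the 19 passed the threshold. Of all genes 3.93% fell in si-hnRNPK, and 1.39% and 3.53% passed in the si-LBCS and si-PTBP1 libraries. PHC2 and CBX6, the PRC1 genes with the highest control levels, were at 193 and 103 CPM in control and 187 and 165 CPM with si-hnRNPK. The medians of the list were -0.01, -0.05 and 0.20 in the si-LBCS, si-hnRNPK and si-PTBP1 libraries.

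A list of chromatin regulators chosen as opposing Polycomb silencing had 16 genes, all tested. Of these 1 fell in the si-LBCS library, 3 fell in si-hnRNPK and 0 passed the threshold in si-PTBP1. Of all genes 1.01% fell in the si-LBCS library, 3.93% fell in si-hnRNPK and 3.53% passed in si-PTBP1. The list held the lysine demethylases KDM6A and KDM6B, trithorax and SWI/SNF subunits, and BAP1, ASXL1 and ASXL2. The median was -0.38 in the si-LBCS library and -0.54 in si-hnRNPK, with 15 and 12 of the 16 genes below 0, against medians of -0.01 and -0.11 over all genes. In si-PTBP1 the median was 0.16, with 3 of the 16 genes below 0. In si-hnRNPK KMT2D, a histone H3 lysine methyltransferase of enhancers, fell from 115 to 45.7 CPM, KMT2A, its relative that maintains HOX gene expression, from 169 to 76.8 CPM, and ARID1A, a SWI/SNF subunit, from 48.4 to 22 CPM. KMT2D was also the 1 gene of the list that fell in the si-LBCS library, to 56.2 CPM. In si-hnRNPK the fifth of protein-coding genes with the longest exonic length had a median of -0.22, and the part of length in the values of this list was not tested. PBRM1, another SWI/SNF subunit, was at 134 CPM in control, 124 CPM in the si-LBCS library and 78.7 CPM with si-hnRNPK.

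Of 21 genes that Polycomb silences in many tissues 12 were listed, and 9 or 10 reached 1 CPM in a comparison. In si-hnRNPK, where EZH2 was lowest, 1 of 9 rose and 1 fell, against 3.55% and 3.93% of all genes. The gene that fell was DAB2IP, which encodes a RAS GTPase-activating protein, from 23.3 to 10.3 CPM. The median of the list in si-hnRNPK was -0.53, against -0.11 over all genes. It was -0.32 in the si-LBCS library and 0.17 in si-PTBP1, with 0 of 10 genes past the threshold in each. Of all genes 1.39% and 3.53% passed in these libraries. PAX6, a developmental transcription factor with the second-highest control level of the list, was at 13.5 CPM in control, 9.68 CPM in the si-LBCS library, 7.31 CPM with si-hnRNPK and 16.4 CPM with si-PTBP1.

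KLF4 was at 4.99 CPM in control, 5.79 CPM in the si-LBCS library, 10.8 CPM with si-hnRNPK and 11 CPM with si-PTBP1. The libraries fell into a low pair and a high pair, and within each pair the ratio did not exceed counting error (1.16, 1.00 to 1.35, for the low pair and 1.02, 0.912 to 1.15, for the high pair). These are the same high and low libraries as for lncRNA-LBCS. KLF4 was at 2.16 times control with si-hnRNPK (1.88 to 2.49) and 2.21 times control with si-PTBP1 (1.92 to 2.54). Its log2 differences of 0.97 and 1.00 lay on either side of the threshold, and median-of-ratios scaling turned them to 1.08 and 0.89. The call of KLF4 therefore depends on the scaling, while both differences were above the medians of -0.11 and 0.12 over all genes.

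The 3′ UTR of KLF4 holds 1 match to the seed of si-hnRNPK siRNA 2, the motif GAAGAGA, shown in capitals with 8 bases on each side: cactgccaGAAGAGAattcagta. KLF4 was above control in the library that received this siRNA. The motif was searched on the transcript strand of the longest 3′ UTR of a protein-coding transcript, and 10.2% of 1379 expressed genes with a 3′ UTR within 20% of the length of that of KLF4 hold it. BMI1 holds 1 match to the seed of si-PTBP1 siRNA 1, the motif AAGTACA, which 12.2% of like-length 3′ UTRs hold, and its level was highest in the si-PTBP1 library. ALDH1A3 also holds 1 match to AAGTACA, which 11.8% of like-length 3′ UTRs hold. Its level was lowest in the si-PTBP1 library, at 5 reads, which did not differ from control beyond counting error. Whether these matches acted on the levels was not tested. No match to the seeds of the 6 knockdown siRNAs was found in the 3′ UTRs of EZH2, EED, SUZ12, CD44 or ALDH1A1. These 3′ UTRs also held 0 matches to the seed of the control siRNA.

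Of 21 other factors of pluripotency and self-renewal 19 were listed, and 10 or 11 reached 1 CPM in a comparison. In the 3 comparisons 0 of these passed the threshold, against 1.39%, 7.48% and 3.53% of all genes in the si-LBCS, si-hnRNPK and si-PTBP1 libraries. The medians were -0.07, 0.06 and 0.15 in the si-LBCS, si-hnRNPK and si-PTBP1 libraries. MYC, a driver of growth and one of the classic reprogramming factors, had the highest control level of the list. It was at 210 CPM in control, 141 CPM in the si-LBCS library, 225 CPM with si-hnRNPK and 166 CPM with si-PTBP1. ZFX, a zinc-finger factor of stem cell self-renewal, was at 74.8, 66.3, 58.5 and 75.2 CPM in the same order.

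CD44 was the most abundant of the 9 genes per kb of exon, and it was low in 2 libraries. It was at 495 CPM in control, 304 CPM in the si-LBCS library, 225 CPM with si-hnRNPK and 511 CPM with si-PTBP1. The control and si-PTBP1 libraries lay within a ratio of 1.03 (1.02 to 1.05) of each other, and the other 2 were below both. With si-hnRNPK CD44 was at 0.455 times control (0.445 to 0.464) and fell by 1.13 on the log2 scale. In the si-LBCS library it was at 0.614 times control (0.603 to 0.625), a difference of -0.70 that did not reach the threshold but was lower than that of all but 3.45% of the genes tested. The si-hnRNPK level was 0.741 times that of the si-LBCS library (0.724 to 0.758).

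Long genes as a class were slightly lower in si-hnRNPK, and CD44, with 10004 exonic bases, is one of them. Among protein-coding genes at a mean of 10 CPM or more, the median difference in si-hnRNPK was -0.05 for the fifth with the shortest exonic length and -0.22 for the fifth with the longest. In si-PTBP1 the same medians were 0.02 and 0.15. Relative to the median of 1508 genes of like length, CD44 differed by -0.98 in si-hnRNPK, just inside the threshold, and by -0.68 in the si-LBCS library. Against the geometric mean of the other 3 libraries its difference in si-hnRNPK was -0.91.

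Of 23 ligands, partners, sheddases and splicing regulators of CD44, 17 or 18 were tested. In si-hnRNPK 2 of 18 rose and 0 fell, against 3.55% and 3.93% of all genes. The median of the list was 0.48 there, against -0.11 over all genes. Of the 18 genes 13 were above 0 and 5 below, the lowest at -0.90. HAS2, which makes hyaluronan, the ligand of CD44, was at 15.5 CPM in control, 32.3 CPM in the si-LBCS library, 35.1 CPM with si-hnRNPK and 37.1 CPM with si-PTBP1. HAS2 passed the threshold upwards in all 3 comparisons, and, as these share the control library, its control value alone stood apart. HYAL3, a member of the hyaluronidase family, rose from 1.78 to 6.08 CPM with si-hnRNPK. MSN, which encodes moesin, a link from CD44 to the actin cortex, was at 987 CPM in control, 707 CPM in the si-LBCS library, 1574 CPM with si-hnRNPK and 1009 CPM with si-PTBP1. MMP14, a membrane protease that sheds CD44, was at 439, 265, 511 and 452 CPM in the same order. In the si-LBCS and si-PTBP1 libraries HAS2 was the 1 gene of the list past the threshold, and the medians were -0.01 and 0.09. Of all genes 0.378% and 2.92% rose in these libraries.

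ALDH1A1 was higher in each knockdown library than in control. It was at 14.2 CPM (869 reads) in control, 35.2 CPM (2473 reads) in the si-LBCS library, 41.0 CPM (2229 reads) with si-hnRNPK and 34.2 CPM (1918 reads) with si-PTBP1. The control library stood below the other 3, which lay within a ratio of 1.20 of each other. The rises were 2.49 times (2.30 to 2.69), 2.90 times (2.68 to 3.14) and 2.42 times (2.23 to 2.62) control, or 1.26, 1.47 and 1.22 on the log2 scale. In the si-LBCS library the rise of ALDH1A1 was higher than the difference of 99.9% of the genes tested. Since the 3 rises share 1 control library, they are not 3 separate observations. With the geometric mean of the other 3 libraries as the reference, the differences of ALDH1A1 were 0.36, 0.65 and 0.31, and 0 of the 3 passed the threshold.

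ALDH1A3, the isozyme often responsible for aldehyde dehydrogenase activity in carcinoma cells, was close to the floor in all 4 libraries. It had 14 reads (0.228 CPM) in control, 32 reads (0.456 CPM) in the si-LBCS library, 9 reads (0.166 CPM) with si-hnRNPK and 5 reads (0.0892 CPM) with si-PTBP1. A count of 3 reads corresponds to 0.0427 to 0.0552 CPM in these libraries. The highest library was at 2.0 times control with an interval from 1.04 to 4.05, and the si-hnRNPK and si-PTBP1 libraries did not differ from control beyond counting error. ALDH1A3 shares 1585 exonic bases with an antisense gene that was at 1.71 to 3.0 CPM. The strand setting of the counting is not given in the sources used here, so reads of the pair cannot be told apart. In control cells ALDH1A1 had 4.97 CPM per kb of exon and ALDH1A3 0.0395 CPM per kb, so ALDH1A1 was the expressed isozyme of the pair in this line.

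Of the other aldehyde dehydrogenase genes 14 of 17 were listed and 11 were tested. In the si-LBCS library 1 of the 11 rose and in si-PTBP1 2 of the 11 rose, against 0.378% and 2.92% of all genes. ALDH3B1, which oxidises aldehydes from lipids, rose in both, from 42.2 CPM in control to 103 and 91.6 CPM, and was at 36.5 CPM with si-hnRNPK. ALDH6A1, a mitochondrial enzyme of valine breakdown, rose from 12.2 to 33.2 CPM with si-PTBP1. In si-hnRNPK 1 of the 11 rose, ALDH4A1, a mitochondrial enzyme of proline breakdown, from 4.56 to 10.6 CPM. Of all genes 3.55% rose there. ALDH18A1 and ALDH1B1, which have the highest control levels of the list, were at 147 and 86.9 CPM in control and 162 and 86.8 CPM with si-hnRNPK. The medians of the 11 genes were 0.24, -0.00164 and -0.11 in the si-LBCS, si-hnRNPK and si-PTBP1 libraries.

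Of 22 genes that supply, bind or respond to retinoic acid 12 were tested. In si-hnRNPK STRA6, a cell-surface receptor for retinol uptake, fell from 3.01 to 0.479 CPM. In si-PTBP1 RDH11, a retinaldehyde reductase, fell from 194 to 88.6 CPM, and NRIP1, a nuclear receptor corepressor, rose from 37.7 to 83.8 CPM. In the si-LBCS library 0 of the 12 passed the threshold. RDH11 was at 133 CPM and ADH5, an alcohol dehydrogenase, at 82.4 CPM there, against 194 and 66.2 CPM in control. The medians were 0.19, -0.12 and 0.33 in the si-LBCS, si-hnRNPK and si-PTBP1 libraries. Of all genes 1.39%, 7.48% and 3.53% passed the threshold in the same order.

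**Figure D4:**
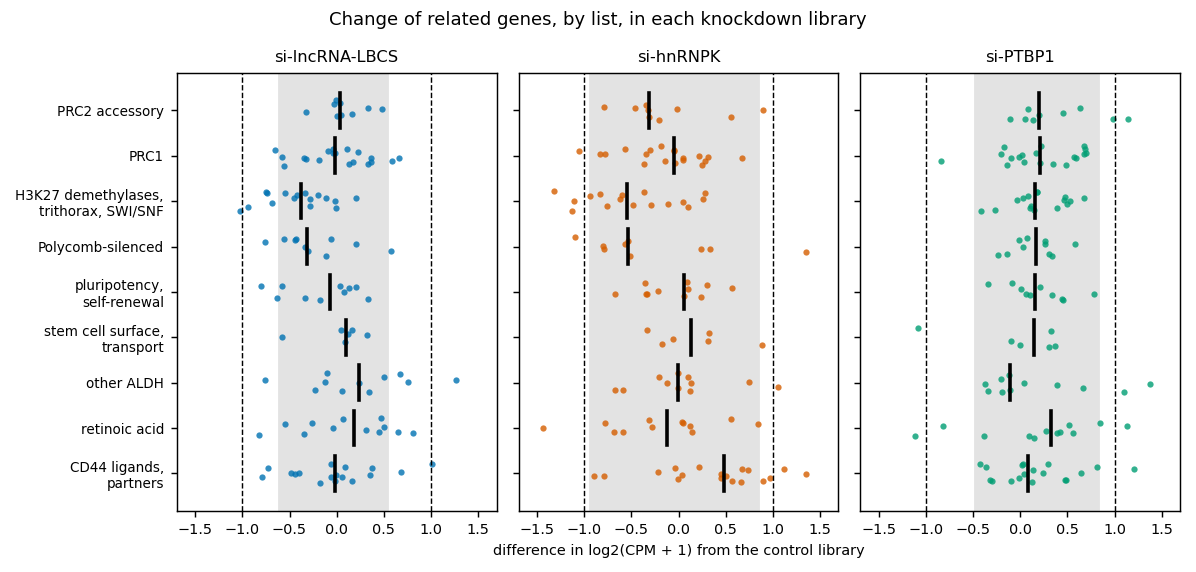
Difference in log2(CPM + 1) from the control library (x axis) for the genes of 9 lists in the 3 knockdown libraries, 1 point per gene tested, with the median of each list as a black bar. The grey band holds the middle 90% of all genes tested and dashed lines mark the threshold of 1. The demethylase, trithorax and SWI/SNF list has medians of -0.38 and -0.54 in the si-LBCS and si-hnRNPK libraries, and the list around CD44 has a median of 0.48 in si-hnRNPK.

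Of 17 surface and transport markers of tumour stem cells 12 were listed and 6 were tested. In si-PTBP1 THY1, a surface glycoprotein, fell from 11.4 to 4.85 CPM, and 0 of the 6 passed in the other 2 comparisons. Of all genes 0.613% fell in si-PTBP1, and 1.39% and 7.48% passed in the si-LBCS and si-hnRNPK libraries. RPSA, the laminin receptor that is also a ribosomal protein with many processed pseudogenes, was at 2071 CPM in control and 2065 to 2594 CPM in the knockdown libraries. MET, the receptor of hepatocyte growth factor, was at 374 CPM in control, 398 CPM in the si-LBCS library, 694 CPM with si-hnRNPK and 482 CPM with si-PTBP1.

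The label of the cells was set beside markers. Of 14 urothelial markers 3 reached 1 CPM in control (PPARG, FOXA1 and KRT7, at 2.33, 2.07 and 2.85 CPM), and the uroplakin genes listed were below 1 CPM. Of 5 epithelial markers 3 were listed in control and 2 reached 1 CPM, the keratins KRT8 and KRT18, at 63.0 and 121 CPM. KRT19 was at 0.0978 CPM, and EPCAM and CDH1 had no value in control. The mesenchymal filament gene VIM was at 2343 CPM in control. Leukocyte and endothelial markers were below 1 CPM in all 4 libraries. Of 4 fibroblast markers 2 reached 1 CPM in si-PTBP1 only, where the list summed to 3.98 CPM against 0.812 to 0.945 CPM in the other libraries, and the part of this in the values of the 9 genes was not tested. In bulk RNA of this kind fewer cells that express a gene and less RNA per cell cannot be told apart.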

How the data were processed

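RNA-seq was deposited for 4 libraries of UM-UC-3 cells, 1 per condition, grouped by their titles. The authors deposited CPM per Ensembl gene identifier. The submitters' processing notes name hg19, and the aligner, counting method, annotation, strand setting and filters are not given in the sources used here. All deposited CPM values of genes with reads (100%) stood for a whole number of reads, within 0.001 reads, so that read numbers were recovered. Genes without reads carry a placeholder below 1 read. Differences were taken in log2(CPM + 1) between a knockdown library and the control library, for genes listed in both tables whose higher CPM was at least 1, and a difference of 1 or more was called. Since there are no replicates, no p-value is given. Ratios of CPM carry 95% exact Clopper-Pearson intervals, and levels in the bar plots exact Poisson intervals, which cover counting error only. PCR reads are not independent molecules. Each choice was varied once: the pseudocount (0.1), the filter (none, or 5 CPM), the threshold (1.5-fold), the scaling (median of ratios over 12362 genes) and the reference (the geometric mean of the other 3 libraries). The comparison with genes whose exonic length lies within 20% was added after seeing the data. The exact binomial comparison of reads, with Benjamini-Hochberg adjustment, called 9479, 10872 and 10182 genes in the si-LBCS, si-hnRNPK and si-PTBP1 libraries. It compares libraries and not conditions.

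Positions, exons and transcripts are from GENCODE release 29 on GRCh38, joined to the tables by Ensembl identifier, and the authors' own coordinates were not used. siRNA sites and seed motifs were found by exact match. The genes and lists were chosen with earlier results of these data known. Genes named from a list are up to 4 with the largest change among those past the threshold in a comparison, or the 2 with the highest control level where fewer than 2 passed. The values of 1 list gene past the threshold are not reported here. On simulated reads with 200 of 13326 genes changed by 4-fold (si-hnRNPK depth), the calls held 100% of the changed genes and 0 others. The simulation holds counting error only. Its changed genes were drawn from those at 10 CPM or more in control, above the levels of lncRNA-LBCS, KLF4 and ALDH1A3. It therefore does not show how changes of lower genes, or changes smaller than 4-fold, would be called. Intervals and exact comparisons used scipy 1.17.1, tables pandas 2.3.3 and numpy 2.4.6, and plots matplotlib 3.10.9, under Python 3.11.15.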

Additional observations from a re-analysis of the deposited data

How the results depend on the processing

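Without replicates, no setting measures the spread between cultures, and no library could be left out of a comparison. No paired analysis was possible because each condition has 1 library and the labels give no replicate numbers. Of the 9 genes, the number past the threshold in the si-LBCS library was 1, and became 2 with a 1.5-fold threshold (CD44 added) and 0 with the geometric mean of the other 3 libraries as the reference. In si-hnRNPK it was 3, and became 4 with a pseudocount of 0.1 or with median-of-ratios scaling (KLF4 added). It became 6 there with 1.5-fold and 1 (EZH2) with the geometric mean. In si-PTBP1 it was 2, and became 3 with a pseudocount of 0.1 or with 1.5-fold (lncRNA-LBCS added). It became 1 there with median-of-ratios scaling (KLF4 lost) and 0 with the geometric mean. Over all genes, against 187, 1023 and 489 genes past the threshold in the si-LBCS, si-hnRNPK and si-PTBP1 libraries, a pseudocount of 0.1 gave 518, 1785 and 966. A 1.5-fold threshold gave 1333, 3517 and 2105 and the geometric mean 110, 675 and 308. Median-of-ratios scaling moved the upward share of calls from 47.5% to 62.0% in si-hnRNPK and from 82.6% to 66.0% in si-PTBP1, and the geometric mean moved it from 27.3% to 5.45% in si-LBCS. The cause was not tested for any of these. No call of the 9 genes turned its direction under the alternatives run for them. Of the 27 differences (9 genes in 3 comparisons), uncalled ones changed sign in 4 cases with the geometric mean, 2 with median-of-ratios scaling and 3 relative to genes of like length. Few reads widen the counting intervals of lncRNA-LBCS and ALDH1A3, which had 103 to 214 and 5 to 32 reads.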
